A study of Rattus norvegicus with 16 samples.

Results

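Of the 30560 genes listed in primary rat microglia, 147 combined a large rise under lipopolysaccharide (LPS) with a large fall when apolipoprotein A-I (ApoA-I) was present together with LPS. They were chosen by 2 conditions on group means of TPM, a transcript level corrected for transcript length and for the size of the library. The mean in LPS had to lie at least 2 log2 units above Control, and the mean in LPS with ApoA-I at least 1 log2 unit below LPS, both after adding 1 TPM. The first condition was met by 299 genes, the second by 320, and both by 147, which is 49.2% of the LPS-induced genes. The other 152 LPS-induced genes, which met the first condition only, serve below as the comparison genes. Since the levels in Control, LPS and LPS with ApoA-I selected the 147 genes, differences among those groups are given as a description with no test.

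The microglia were wild type, were cultured to day 12 in vitro, and came in 4 groups of 4 libraries. Control received neither agent, ApoA-I cultures received 100 ug/ml of the protein in the medium, LPS cultures received 100 ng/ml LPS for 20 hours, and the fourth group received both agents at the same doses. The question the design addresses is how ApoA-I changes the transcripts of resting and LPS-treated microglia. Total estimated counts were 12304916 to 17262383 per library. Nothing in the labels states that replicates came from different cultures or animals. The p-values therefore cover the spread among these libraries alone, and it may be technical. Total RNA of whole cultures was measured, so fewer cells of a type and less RNA per cell cannot be told apart, and the labelled cell type was not checked against its markers because the files pair no identifier with a gene name.

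Microglia are the resident macrophages of the brain. They sense LPS, from the cell envelope of Gram-negative bacteria, through Toll-like receptor 4 with its partners CD14 and MD-2, and the signal reaches NF-κB and interferon regulatory factors, which switch on cytokine, chemokine and interferon-stimulated genes. Many of these genes are nearly silent at rest and become some of the most abundant transcripts of the cell. ApoA-I is the main protein of high-density lipoprotein and takes up cholesterol from cells through the transporter ABCA1. The genes are listed by Ensembl identifier only, so the roles of the members are not given. Members are named here by their rank, where rank 1 has the highest mean TPM in LPS, and 4 identifiers are printed as examples.

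The 147 genes together took 0.135% of all TPM in Control, 4.998% under LPS and 1.42% with both agents. Their summed level in the 4 LPS libraries was 48896, 49866, 49056 and 52094 TPM, and in the 4 libraries of LPS with ApoA-I it was 14865, 15285, 13333 and 13454 TPM. Every library of LPS with ApoA-I lay far below every LPS library and far above every library without LPS, where the sums were 1172 to 1449 TPM in Control and 1365 to 1641 TPM in ApoA-I. As means these are 49978 ± 1473 TPM for LPS, 14234 ± 987 for LPS with ApoA-I, 1350 ± 124 for Control and 1463 ± 123 for ApoA-I (SD, n = 4). The Control and ApoA-I sums overlapped. The 5 most abundant members carried much of the LPS sum, and without them the mean sums were 20680, 6553, 1312 and 1411 TPM in the same order. For the comparison genes the sums were 153676 ± 1780, 119392 ± 5217, 7803 ± 1444 and 11605 ± 3330 TPM (SD, n = 4).

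**Figure D1:**
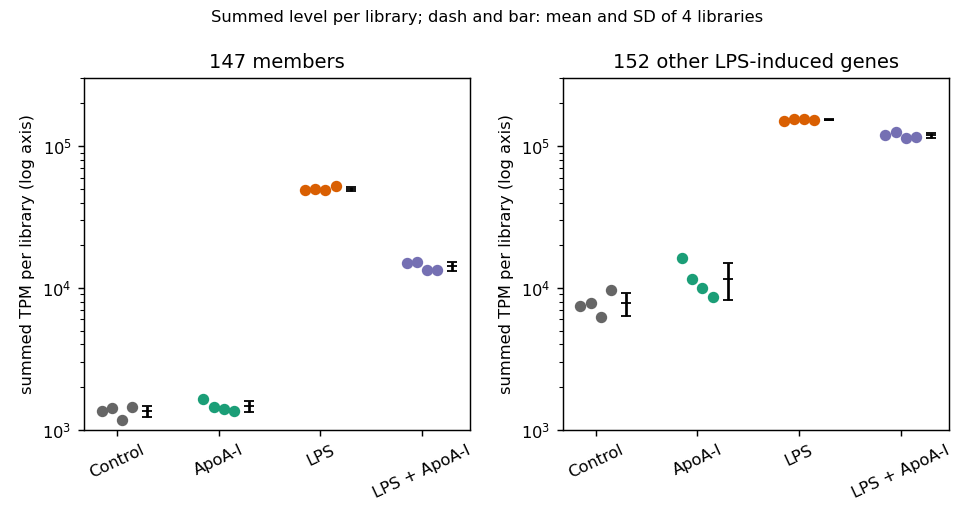
Summed TPM of the 147 members and of the 152 other LPS-induced genes in each library (log axis), by group; points are libraries, and the dash and bar beside them are the mean and SD of 4 libraries. The members' sum in LPS with ApoA-I (14234 TPM) lies between the sums in LPS (49978 TPM) and Control (1350 TPM), in all 4 libraries.

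Many members, though not all, were barely expressed without LPS. In Control, 74 of the 147 had a mean under 1 TPM and 26 had no counts in any library, while 22 had a mean of 10 TPM or more. In ApoA-I, 74 had a mean under 1 TPM and 20 were at 0 in all 4 libraries, while 25 had a mean of 10 TPM or more. In LPS none was under 1 TPM, while 26 were under 1 TPM in LPS with ApoA-I and 5 were at 0 in all 4 of those libraries. The median member stood at 0.865 TPM under Control, 0.988 under ApoA-I, 26.6 under LPS (quartiles 10.3 and 118) and 5.90 under both agents (quartiles 1.79 and 31.8). Among the 100 most abundant genes, Control and ApoA-I cultures had 0 members, LPS cultures 6 and those with both agents 2.

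The values that the rule fixed spread widely among the members. The rise, LPS over Control, ran from 2.01 to 11.21 log2 units of TPM + 1 with a median of 3.12. A rise of 2 to 3 was seen in 71 members, of 3 to 5 in 45, of 5 to 7 in 19 and of 7 or more in 12. The fall, LPS with ApoA-I over LPS, ran from -1.01 to -4.33 with a median of -1.61. It was deeper than 2 log2 units in 48 members, deeper than 3 in 15 and deeper than 4 in 5, and 62 lay between -1.5 and -1. Some deep falls rest on single reads. Those of -4.23, -3.33 and -3.08, for instance, came from LPS sums of 3, 1 and 1 counts. On the linear scale a median of 77.9% of the TPM rise was lost, with a range of 52.0% to 108%. The comparison genes had a median of 33.0% and a highest value of 60.3%, so the 2 sets overlapped on this measure. The second condition kept them apart by the log2 fall, so nothing is read from the gap in the medians.

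The thresholds do not mark a gap. The 3 members just inside the first condition had rises of 2.01, 2.02 and 2.02, and the 3 genes just outside it, all of which met the second, had 1.997, 1.92 and 1.91. The 3 members just inside the second condition had falls of -1.01, -1.01 and -1.02, and the 3 LPS-induced genes just outside it had -0.996, -0.97 and -0.96. The amount added before the logarithm bears on membership. With 0.1 TPM the same conditions took 275 genes, all 147 included, and with 5 TPM they took 71, all of them among the 147.

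**Figure D2:**
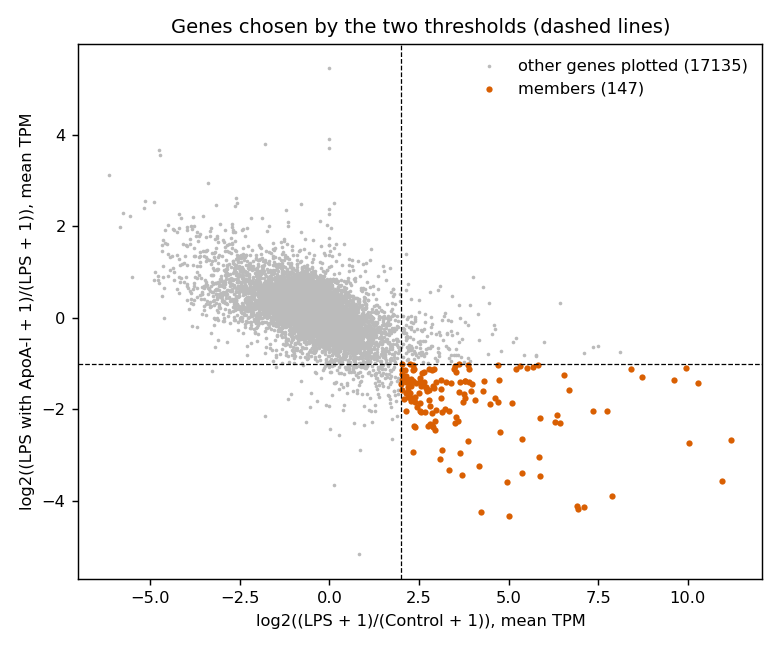
Fall of each gene (log2 of LPS with ApoA-I over LPS, mean TPM + 1) against its rise (log2 of LPS over Control, mean TPM + 1), with the 147 members in orange and the rest of the 17282 genes with any count in grey; dashed lines mark the conditions at 2 and -1. Grey points adjoin the orange ones across both lines, with no gap.

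Most members still stood above their Control level in LPS with ApoA-I. The mean in LPS with ApoA-I exceeded Control by a median of 1.25 log2 units of TPM + 1, with quartiles of 0.72 and 2.60 and a range of -0.59 to 8.85. It was at least 1 log2 unit above Control in 90 members and less than 1 above, or below, in 57. Of the latter, 18 were less than 0.5 above Control or below it, and 6 were at or below Control. Of these 6, 5 had no counts in Control or in LPS with ApoA-I and rest on 1 to 3 counts in LPS, which leaves the rank 82 member as the measured case. Near 0 TPM the added 1 TPM holds such differences down. For ENSRNOG00000002460, with 0 counts in Control and 42 in LPS with ApoA-I, the difference was 0.67. The scale matters too. Over all tested genes, the median of LPS over Control was -0.37 on log2(TPM + 1) and -0.04 on TMM-scaled counts. For LPS with ApoA-I over LPS it was 0.13 and 0.03. The 57 are therefore not all members that returned to Control. Put as a share of the log2 rise, the median member kept 0.442 of it and the median comparison gene 0.851.

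The most abundant members kept a larger share of the log2 rise in TPM + 1. The added 1 TPM shrinks log2 differences more at low levels, and its part in this pattern was not tested. Among the 12 with the highest LPS level, a median of 0.786 of the log2 rise was kept, with a range of 0.168 to 0.890, although a median of 73.6% of the TPM rise was lost. On the linear scale such genes lost most of their added transcripts, and on the log scale they still stood far above Control. The 4 most abundant members held 52.1% of the members' summed TPM under LPS and 52.4% with both agents, and the 12 most abundant held 77.3% and 74.6%.

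ENSRNOG00000013973 had the highest LPS level of all members. Its TPM was 6.44, 7.85, 5.89 and 4.18 in Control, and 8566, 8743, 8763 and 9026 in LPS. In LPS with ApoA-I it was 3454, 3442, 3082 and 3043. The groups with and without LPS did not come near each other, and all 4 libraries of LPS with ApoA-I lay below all 4 LPS libraries. It was the gene of rank 11 among all genes in LPS, at 8774 ± 190 TPM, and of rank 42 in LPS with ApoA-I, at 3255 ± 223 (SD, n = 4).

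ENSRNOG00000002802 came next. It had 17.28, 19.51, 11.59 and 17.60 TPM in Control, 7209, 7124, 7385 and 7653 in LPS, and 3107, 3338, 2728 and 2801 in LPS with ApoA-I. As in the first gene, LPS with ApoA-I lay between the other groups with no overlap, at 2993 ± 282 TPM against 7343 ± 234 in LPS (SD, n = 4). These 2 members fell by a modest factor from a very high level.

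Other abundant members fell by larger factors. At rank 3, the LPS level of 5139 ± 362 TPM dropped to 810 ± 88.8 in LPS with ApoA-I (SD, n = 4), 6.35-fold lower. At rank 4, the 4 LPS libraries had 4579, 4829, 4434 and 5221 TPM and the 4 libraries of LPS with ApoA-I had 447, 422, 358 and 387. That is 11.8-fold lower, with Control at 1.42 ± 0.738 TPM (SD, n = 4). The rank 9 member went from 0.193 TPM in Control to 1249 ± 44.6 under LPS and 188 ± 17.6 with both agents (SD, n = 4). Ranks 21 and 24, at 374 and 294 TPM in LPS, were 18.3-fold and 19.2-fold lower with ApoA-I.

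The rank 7 member followed another pattern, with a high resting level and a return most of the way toward it. It had 163 to 194 TPM in Control, 1405, 1385, 1238 and 1557 in LPS, and 252, 256, 268 and 244 in LPS with ApoA-I. The libraries of LPS with ApoA-I all lay above the 4 Control libraries, by a difference of the means of 0.50 log2 units of TPM + 1, and the gene kept 0.168 of its log2 rise. Over ApoA-I alone, its level in LPS with ApoA-I was 0.83 log2 units higher on counts (SE 0.06, edgeR adjusted p = 2.97e-11). The rank 11 member was its opposite. It had 2 counts over the 4 Control libraries, 1027 ± 70.5 TPM under LPS and 480 ± 68.3 with both agents (SD, n = 4), and kept 0.890 of its rise.

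ENSRNOG00000002460 showed the deepest fall. It had no counts in any Control or ApoA-I library, 31.61, 27.77, 31.30 and 33.86 TPM in the LPS libraries, and 0.13, 0.61, 0.96 and 0.67 in LPS with ApoA-I. The LPS level, 31.1 ± 2.52 TPM from 1995 counts, was 52.5-fold above the level with ApoA-I, 0.593 ± 0.344 TPM from 42 counts (SD, n = 4). Against Control, where a count of 0 over the group allows up to 3 counts, the LPS level of 42.6 CPM (counts scaled to the size of the library, with no correction for length) was at least 922-fold higher. Such floors cover counting error only.

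ENSRNOG00000070781 comes second by fall but rests on almost no reads. Its LPS values of 0, 0, 22.65 and 48.59 TPM came from 0, 0, 1 and 2 counts, and it was at 0 in every other library. It is 1 of 7 members with fewer than 40 counts over the 4 LPS libraries, whose sums were 1, 1, 1, 2, 3, 5 and 8 counts. Of those 7, 3 had counts in 1 LPS library and 3 in 2. Another 2 members, with 48 and 49 counts in LPS, also missed the count filter. The 138 members that passed it had at least 72 counts in LPS.

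The same 7 sparse genes were the only members whose LPS and LPS with ApoA-I libraries overlapped in TPM. The other 140 of 147 were lower in all 4 libraries of LPS with ApoA-I than in all 4 LPS libraries, a pattern that the rule favours, and 15.3% of all tested genes showed it. A lack of overlap does not make a member even across libraries. At rank 115, the LPS libraries had 4.67, 23.36, 4.06 and 3.24 TPM. Its fall was -1.94 log2 units on mean TPM + 1 and -0.83 on counts. In the fit over all genes, 138 of 138 members were higher in LPS than in Control, beside 36.3% of all tested genes, and 137 of 138 were lower in LPS with ApoA-I than in LPS, beside 24.9%. These counts repeat what the selection fixed, and nothing is read from them.

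**Figure D3:**
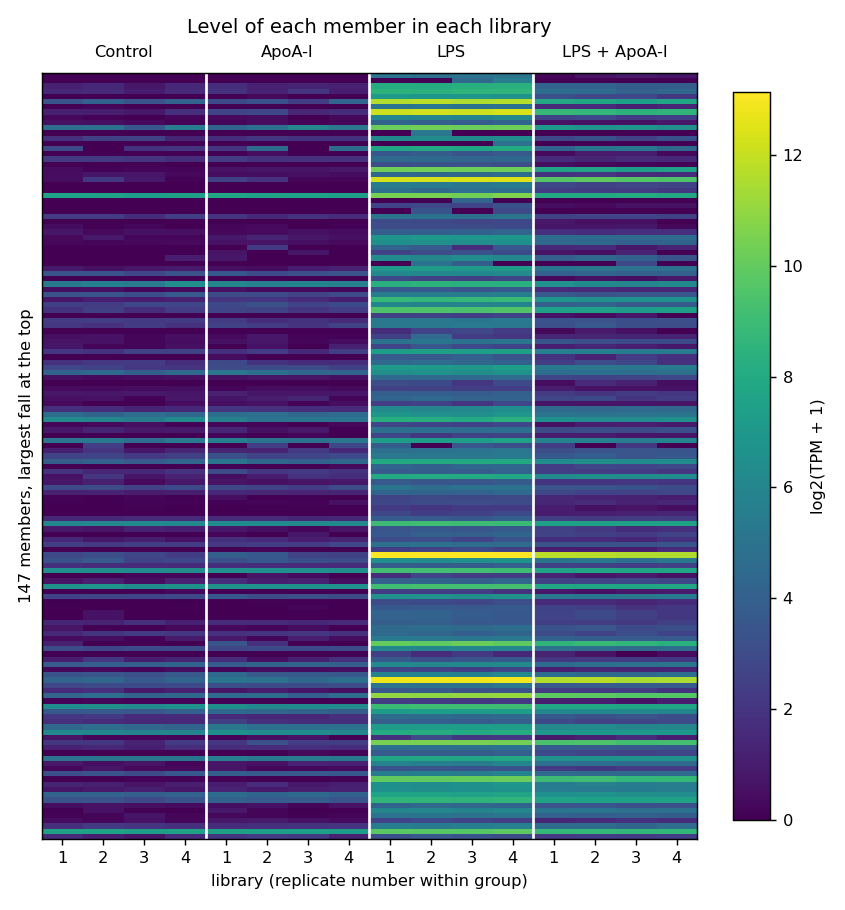
Level of each of the 147 members, as log2(TPM + 1), in each of the 16 libraries, with members ordered by the size of their fall. Columns within a group look alike in most rows, and 6 of the 7 members with few counts appear in only 1 or 2 of the 4 LPS libraries.

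The values per length are uncertain for a small number of very short gene models. The ratio of counts to TPM gives an effective length, the length over which reads could start, here set relative to the median of well-measured genes in each library. Of 119 members with at least 5 TPM in every LPS library, 7 had a relative length under 0.1 (5.88%), against 1.33% of all 7467 genes measured and 2 of 138 comparison genes. The rank 5 member, for instance, had 3275 TPM in LPS, rank 39 of all genes, but 259 CPM, rank 762. Ranks 10 and 12 likewise stood at rank 123 and rank 152 of all genes by TPM and at rank 2160 and rank 2707 by CPM. By CPM, 9 of the 12 most abundant members were the same.

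The effective length itself also moved between libraries for these genes. Ranks 5, 10, 12 and 28 were 4 of the 5 members whose relative length differed by more than 0.05 log2 units between LPS with ApoA-I and LPS, with shifts of 0.08, 0.08, 0.09 and 0.17. Such shifts are small beside their falls of 3.90, 3.40, 1.36 and 3.04 log2 units. Over the 76 members with at least 5 TPM in all 8 LPS-treated libraries, the groups did not overlap in relative length for 2 members, beside 4.34% of all genes. The rank 93 and rank 94 members had identical values in every library and are not separate measurements.

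ApoA-I without LPS was the first comparison that could be tested, since the ApoA-I libraries took no part in the choice, although the Control libraries did and the first condition favours genes that read low there. In ApoA-I against Control, 15 of the 138 tested members (10.9%) changed at an adjusted p under 0.05 by edgeR's quasi-likelihood test, 11 higher and 4 lower. Over all 11902 tested genes 4.27% changed, 2.50% higher and 1.77% lower, and among the 148 tested comparison genes 36 changed (24.3%), 31 higher and 5 lower. The median log2 fold change was 0.07 in members, 0.24 in comparison genes and -0.00 over all tested genes. When only the Control and ApoA-I libraries were fitted, 79 members passed the count filter. The rest of the 138 passed it only with the LPS-treated libraries included. In the fit of the 2 groups alone, 3 of the 79 were called (3.80%), 2 higher and 1 lower, beside 0.815% of all genes. The median Control level was 0.865 TPM in members and 6.1 TPM in comparison genes, and low levels make a call harder. The difference between the 2 sets of LPS-induced genes was not tested and cannot be told apart from their levels.

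Members raised by ApoA-I alone rose slightly beside what LPS did to them. The 11 rises were 0.29 to 1.40 log2 units, from Control means of 1.07 to 63.3 TPM. At rank 29, the TPM was 31.39, 33.64, 31.69 and 34.01 in Control and 47.92, 38.31, 42.87 and 39.14 in ApoA-I, a log2 fold change of 0.30 with an SE of 0.05 (edgeR adjusted p = 0.00177). Every ApoA-I library lay above every Control library there. At rank 33, Control libraries had 20.51, 24.93, 19.54 and 17.15 TPM and ApoA-I libraries 36.18, 27.75, 27.12 and 29.82, again with no overlap (log2 fold change 0.49, SE 0.08, edgeR adjusted p = 0.00218). The largest rise was at rank 4, from 1.42 to 3.92 TPM (1.40, SE 0.33, edgeR adjusted p = 0.0192), where the groups overlapped. Leaving out any of Control replicates 1, 2 and 3 or ApoA-I replicates 1 and 2 ended that call, with edgeR adjusted p from 0.0555 to 0.0895.

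The most abundant members gave mixed results in this comparison. For ENSRNOG00000002802 the ApoA-I libraries had 31.93, 29.69, 19.73 and 25.78 TPM, all above the 4 Control libraries, with a log2 fold change of 0.64 and an SE of 0.14 (edgeR adjusted p = 0.0118). That call is lost without Control replicate 3 (edgeR adjusted p = 0.0548) or ApoA-I replicate 1 (edgeR adjusted p = 0.0552). ENSRNOG00000013973 had 14.84, 11.20, 5.48 and 5.06 TPM in ApoA-I, which overlapped Control, and did not pass (log2 fold change 0.50, SE 0.25, edgeR adjusted p = 0.276). The rank 9 member had 0.11 to 0.30 TPM in Control and 0.57 to 0.79 in ApoA-I with no overlap, from 8 and 22 counts. It did not pass either (1.53, SE 0.49, edgeR adjusted p = 0.0788), although limma on log2(TPM + 1) called it higher (0.49, limma adjusted p = 0.00373). This member passed the count filter only with the LPS-treated libraries included, so nothing is read from either p-value.

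The 4 lower members ran against the direction of LPS. The largest fall, with the smallest adjusted p of the 4, was at rank 23, where the Control libraries had 70.93, 62.02, 45.77 and 74.79 TPM and the ApoA-I libraries 51.71, 31.10, 32.25 and 32.85. All but 1 ApoA-I library lay below all 4 Control libraries, and the log2 fold change was -0.85 with an SE of 0.13 (edgeR adjusted p = 0.000673). The others, at ranks 59, 61 and 71, had log2 fold changes of -0.60, -0.60 and -0.70. Only rank 59 had groups that did not overlap, with 9.11, 9.80, 8.01 and 11.97 TPM in Control and 7.32, 6.89, 5.52 and 7.20 in ApoA-I (SE 0.11, edgeR adjusted p = 0.00388). The rank 61 call was lost without Control replicate 1, 2 or 3 or ApoA-I replicate 2 or 4, with edgeR adjusted p from 0.0507 to 0.0533. In LPS these 4 members stood at 30.5 to 296 TPM.

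**Figure D4:**
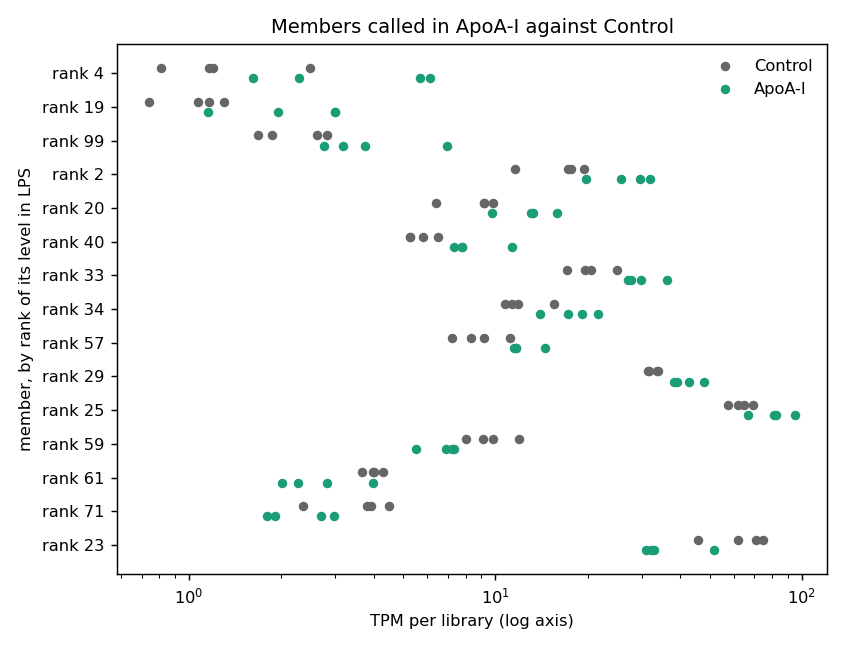
TPM in each Control and ApoA-I library (log axis) of the 15 members that changed in ApoA-I against Control, 1 row per member, labelled by rank of LPS level; points are libraries, the 11 higher members stand above the 4 lower ones. Control and ApoA-I points do not overlap in 5 of the 11 higher rows and 1 of the 4 lower rows.

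ApoA-I replicate 1 bore on these calls. It had the highest TPM of its group in 13 of the 15 called members, 9 of the 11 higher ones included, and in 45.5% of the tested members with a single highest library, against 49.0% of all tested genes and 70.5% of comparison genes. The groups did not overlap in TPM for 5 of the 11 higher and 1 of the 4 lower members. Without ApoA-I replicate 1 the count of called members was 8, of which 7 had been called with it, while 1.55% of all tested genes were called. Without Control replicate 3 the count was 9, beside 1.68% of all tested genes, so the counts over members and over all genes both fell. Of the 15 calls, those at ranks 23, 29 and 33 held in all 14 alternatives run, which include leaving out each library of the 2 groups. The part of either library in the result was not tested further.

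The second tested comparison asked how far LPS still raised the members when ApoA-I was present in both groups. The libraries of LPS with ApoA-I had been used by the rule, those of ApoA-I had not. Between LPS with ApoA-I and ApoA-I, 135 of 138 tested members (97.8%) were higher by edgeR's quasi-likelihood test and 0 were lower. Over all tested genes 34.5% were higher, and all 148 tested comparison genes were higher. When only those 8 libraries were fitted, 117 members passed the count filter and 114 of them were higher. The rest of the 138 passed the filter only with the other libraries included. Both the rule and the filter bear on these counts, so they are not independent support for a response. The median log2 fold change was 3.02 in members (quartiles 1.63 and 5.52) and 2.89 in comparison genes. All 4 libraries of LPS with ApoA-I lay above all 4 ApoA-I libraries in 120 of the 147 members, beside 13.9% of tested genes. On log2(TPM + 1) the median of all tested genes was -0.30 in this comparison, against -0.01 with the TMM scaling of counts. The all-gene median thus sits 0.29 log2 units lower on that scale. Single members differ by other amounts, as the added 1 TPM shrinks log2 differences more at low levels.

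As a description, members with larger LPS responses retained larger ones. The classes below were cut on the rise that the rule used, and the rule also used the libraries of LPS with ApoA-I. The median log2 fold change of LPS with ApoA-I over ApoA-I was 1.66 in members with a rise of 2 to 3, 3.07 with a rise of 3 to 5, 5.55 with a rise of 5 to 7, and 7.22 with a rise of 7 or more. The numbers higher were 64 of 67, 40 of 40, 19 of 19 and 12 of 12, beside 34.5% of all tested genes, and nothing is read from them. For ENSRNOG00000013973 the difference was 8.87 with an SE of 0.19 (edgeR adjusted p = 5.38e-20), and for ENSRNOG00000002802 it was 7.18 with an SE of 0.14 (edgeR adjusted p = 1.03e-20). ENSRNOG00000002460, at 0 counts in ApoA-I, was at least 14.5-fold higher in LPS with ApoA-I, at 0.736 CPM (edgeR adjusted p = 1.55e-05). The floor was again set at 3 counts summed over ApoA-I libraries. This gene passed the count filter only with the LPS libraries included, so nothing is read from that p-value.

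The 3 members without a rise in this comparison stood close to their ApoA-I level in LPS with ApoA-I. At rank 82, the LPS libraries had 22.32, 21.12, 18.72 and 19.77 TPM, those of LPS with ApoA-I 1.93, 1.60, 1.95 and 1.74, and those of ApoA-I 4.12, 2.67, 2.71 and 2.44. All 4 libraries of LPS with ApoA-I thus lay below all 4 of ApoA-I. The log2 fold change was -0.36 with an SE of 0.19 and did not pass (edgeR adjusted p = 0.0920), while limma on log2(TPM + 1) gave -0.49 (limma adjusted p = 0.00287), on the scale whose all-gene median is -0.30. At rank 99, the means were 2.24 TPM under Control, 4.15 under ApoA-I, 13.7 under LPS and 3.88 under both agents (log2 fold change 0.27, edgeR adjusted p = 0.254). That value was -0.02 by limma on log2(TPM + 1), and without ApoA-I replicate 1 it was 0.59, a rise (edgeR adjusted p = 0.00611). At rank 118 they were 1.10, 1.72, 7.47 and 2.12 TPM (log2 fold change 0.66, edgeR adjusted p = 0.0982). The rank 99 member was also among the 11 called higher with ApoA-I alone, a call lost in 7 of 14 alternatives.

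The response to LPS without ApoA-I and the response with it were also set side by side gene by gene, as a description. Among the 69 members with at least 1 TPM in both Control and ApoA-I, the median log2 fold change was 3.48 without ApoA-I and 1.67 with it. The median ratio of the 2 responses was 0.492, with quartiles of 0.372 and 0.609 and a range of -0.12 to 0.81. In the 115 comparison genes at that level it was 0.743, with medians of 3.23 and 2.57. The second condition separated the 2 sets by LPS with ApoA-I against LPS, whose libraries enter both responses, so this gap in the ratio follows from the choice of genes and nothing is read from it. The 2 responses ranked the members alike, with Pearson's r of 0.934 and Spearman's rho of 0.849 across these 69 genes (0.883 and 0.750 in the comparison genes). Genes are not independent replicates, and both conditions of the rule bear on these values, so the correlations too are descriptions.

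**Figure D5:**
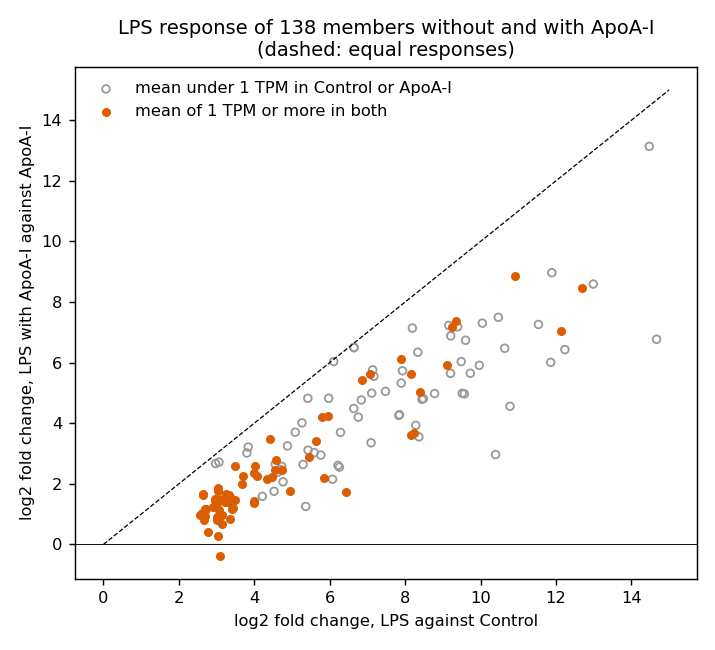
Log2 fold change of LPS with ApoA-I over ApoA-I against log2 fold change of LPS over Control (edgeR) for the 138 tested members, filled where the mean was at least 1 TPM in Control and ApoA-I. The dashed line marks equal responses, and the 69 filled points lie below it, with ratios of up to 0.81.

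The spread between libraries was described within each group, among the genes abundant there. Among members with at least 10 TPM in a group, the median coefficient of variation was 7.94% in LPS, against 7.51% over all genes at that level. It was 8.56% against 5.45% in LPS with ApoA-I, 15.7% against 9.16% in ApoA-I, and 16.3% against 8.15% in Control. Comparison genes had 6.34%, 5.38%, 16.3% and 13.9% in the same order. The members at that level numbered 111, 61, 25 and 22 in that order. The groups thus rest on different genes, and the sets were not matched for level. Within LPS with ApoA-I, replicates 1 and 2 were the highest library in 33.6% and 30.7% of the tested members, against 21.4% and 21.2% of all tested genes, and replicate 3 in 15.3% against 34.9%.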

How the data were processed

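For 16 libraries of total RNA the authors deposited 1 table of expected counts and 1 of TPM, both by gene. Groups come from the sample titles. Tools named in the submitters' processing notes are RSEM 1.3.1, STAR 2.7.10b and cutadapt 1.8.1, in no stated role. The notes also name mm10, a mouse build, whereas each of the 30560 identifiers is of Ensembl's rat series. Which annotation was used is not given in the sources, and its effect on counts of single genes was not tested. The members and lists were chosen with earlier results of these data known.

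Members were selected on the deposited TPM with a pseudocount of 1. Expected counts were rounded, filtered with filterByExpr (minimum count 10, leaving 11902 genes, 138 members), scaled by TMM and fitted over all 16 libraries with edgeR 4.0.16 in R 4.3.3 (quasi-likelihood F test, Benjamini-Hochberg over all tested genes, threshold 0.05). The 9 members under the filter were not tested. The test was checked on simulated data. Alternatives used limma 3.58.1, DESeq2 1.42.0, other filters, pseudocounts and scalings, a replicate block, and leaving out each library. By the rule for unnamed members, 2 identifiers with the highest LPS level and 2 with the deepest fall are printed. Gene lists by role and cell type markers were not used here: the name table (RefSeq, assembly GRCr8) lists 47357 genes and 0 Ensembl identifiers, which leaves every member without a symbol or sequence. Other members were picked as examples after their values were seen. Total counts of 12304916 to 17262383 per library set the precision, and floors are 3 counts over a group.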

Additional observations from a re-analysis of the deposited data

Results flagged for a closer look

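Among 119 groups of 4 libraries examined for the 12 most abundant members, the 15 that changed in ApoA-I against Control, the identifiers printed and the 3 not raised, 6 held 1 library far from the others; chance gives about 1 in 20 groups. In ApoA-I, replicate 1 stood apart in 4 of them: it had 11.31 TPM against 7.31 to 7.79 in the others at rank 40, 14.56 against 11.48 to 11.67 at rank 57, 51.71 against 31.10 to 32.85 at rank 23, and 4.12 against 2.44 to 2.71 at rank 82. At rank 12, Control replicate 1 had 1.20 TPM and the other Control libraries 0, from 1 count. At rank 29, LPS replicate 4 had 251.08 TPM against 219.87 to 224.71.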

How the results depend on the processing

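The number of members depended on the pseudocount, with 275 at 0.1 TPM and 71 at 5 TPM against 147. It was 144 with group medians, 192 with TMM-scaled CPM (129 shared) and 138 with the count filter, and 139 to 150 when 1 library was left out. For ApoA-I against Control, the 15 called members became 26 by DESeq2 and 3, of 79 tested, in a fit of only the 8 libraries compared, while the share of all genes called went from 4.27% to 7.66% and 0.815%. They were 20 without a filter, 12 by limma (10 higher, 2 lower), 15 with DESeq2's size factors in edgeR and 8 to 22 when 1 library was left out. Between LPS with ApoA-I and ApoA-I, the 135 were 135 with the other size factors, by DESeq2 and without a filter, 114 of 117 tested in the 8 libraries, 131 by limma (130 higher, 1 lower) and 131 to 136 when 1 library was left out. In the fit of the 8 libraries compared, ApoA-I against Control lost all calls but those of ranks 23, 29 and 33 (edgeR adjusted p 0.0527 to 0.172 for the others), and limma lost those of ranks 4, 61, 71 and 99 (0.0552 to 0.0857). Among the 23 single-gene values recomputed, the rank 99 member between LPS with ApoA-I and ApoA-I was the 1 that turned direction, to -0.0199 by limma. The cause of these changes was not tested. With the replicate number as a block, 17 and 135 members were called; same-numbered libraries deviated from their group means with correlations of -0.179 to 0.176 over 24 pairs, 3 of them over 0.1, and 5 of 16 libraries correlated best with their own number, so the numbers were not taken to pair the samples. The planned counts of gene lists by role were not run, because no identifier could be paired with a symbol. Depth limits the 9 members under the count filter.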
